A study of Homo sapiens with 4 samples.

Results

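Metallothionein RNA was examined in darolutamide-resistant prostate cancer cells with and without knockdown of the long non-coding RNA LOC730101. The genes were 6 metallothionein genes (MT2A, MT1G, MT1F, MT1X, MT1E and MT1M), their transcriptional regulator MTF1 and the zinc exporter SLC30A1. They were taken by name from the deposited count table, where these 8 genes stand among 60606. All cells were LNCaP-DaroR cells, a single line derived from LNCaP, an androgen receptor-positive prostate cancer cell line, by long culture in the antiandrogen darolutamide and then kept in the drug. Cells were transfected with Control siRNA (siControl, n = 2) or with pooled siRNAs that target LOC730101 (siLOC730101, n = 2), and the comparison asks which RNAs differ when LOC730101 is reduced. No parental LNCaP library is part of this comparison, and the labels do not say whether the 2 libraries of a group came from separate cultures, so the p-values measure only the spread between these libraries.

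Metallothioneins are small, cysteine-rich proteins that bind zinc and copper and also sequester cadmium. When free zinc rises, the zinc-finger factor MTF1 binds metal response elements in the promoters of metallothionein genes and of SLC30A1, so that zinc is bound in the cytosol and pumped out of the cell. Prostate epithelium is known for holding much zinc, and prostate cancer cells for holding less. Metallothionein genes lie side by side on the long arm of human chromosome 16 and resemble each other closely.

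The libraries held 39213498 to 53368158 counts. LOC730101, listed as ENSG00000216775, had counts of 2560 and 2370 in the siControl libraries and of 633 and 680 in the siLOC730101 libraries. The log2 fold change (siLOC730101 against siControl) was -1.56, with a standard error (SE) of 0.12 and an adjusted p of 4.34e-06 (edgeR's quasi-likelihood test with Benjamini-Hochberg adjustment over the 19349 genes tested). Of 10 prostate luminal markers all 10 were detected in every library, with a summed level of 7036 to 7933 CPM (counts scaled by the size of the library). Of 5 leukocyte markers, 0 had more than 3 counts in every library, and their sum was at most 0.278 CPM.

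The promoters are shown because the elements that MTF1 recognises lie in them. RefSeq (GRCh38.p14) promoter windows, from 250 bases before the annotated start to 50 bases after it, were matched for 4 of the 8 genes, MT2A, MT1X, SLC30A1 and MTF1. The core of the metal response element was searched as TGCACNC and TGCGCNC on both strands. The windows follow 5′ to 3′ on the strand of the gene, at chr16:56608334-56608633 (plus strand) for MT2A, chr16:56682220-56682519 (plus strand) for MT1X and chr1:211579112-211579411 (minus strand) for SLC30A1. Capitals mark each core, on either strand.
MT2A: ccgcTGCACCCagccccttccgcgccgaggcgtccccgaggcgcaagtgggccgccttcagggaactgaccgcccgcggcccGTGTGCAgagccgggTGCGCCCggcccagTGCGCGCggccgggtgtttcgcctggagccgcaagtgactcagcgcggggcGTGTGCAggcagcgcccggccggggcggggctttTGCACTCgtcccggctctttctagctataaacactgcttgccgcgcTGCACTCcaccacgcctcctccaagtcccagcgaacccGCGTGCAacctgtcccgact
MT1X: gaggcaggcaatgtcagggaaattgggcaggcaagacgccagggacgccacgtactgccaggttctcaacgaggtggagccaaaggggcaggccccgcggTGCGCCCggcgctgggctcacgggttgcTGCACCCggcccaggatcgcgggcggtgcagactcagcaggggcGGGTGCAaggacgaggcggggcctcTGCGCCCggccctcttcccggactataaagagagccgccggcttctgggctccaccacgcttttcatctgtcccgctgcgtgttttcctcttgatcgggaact
SLC30A1: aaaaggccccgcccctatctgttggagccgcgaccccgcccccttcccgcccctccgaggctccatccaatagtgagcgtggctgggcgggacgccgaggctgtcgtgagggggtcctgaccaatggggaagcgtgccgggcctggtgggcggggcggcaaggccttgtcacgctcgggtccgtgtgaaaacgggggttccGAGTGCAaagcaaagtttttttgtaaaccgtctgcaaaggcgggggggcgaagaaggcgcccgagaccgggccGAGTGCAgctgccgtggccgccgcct

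The MT2A window held 8 cores, 5 on the strand of the gene and 3 on the other. The MT1X window held 4 cores and the SLC30A1 window held 2, and in the MTF1 window 0 were found. No core overlapped another in these windows. Of 35116 promoter windows of the same length, 29.6% held at least 1 core, 8.6% at least 2, 0.6% at least 4 and 0.0199% at least 8. A match of these letters is a description of the sequence and does not show that MTF1 binds there.

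**Figure D1:**
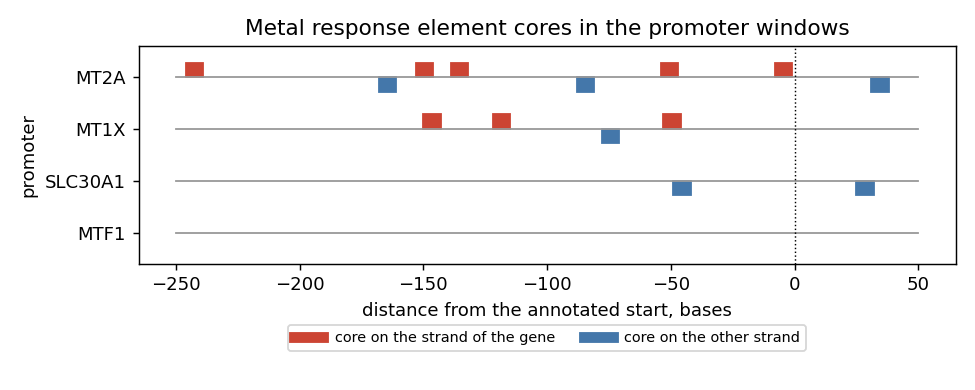
Positions of metal response element cores in the promoter windows of MT2A, MT1X, SLC30A1 and MTF1, with the distance from the annotated start in bases on the horizontal axis and 1 row per gene. Red blocks are cores on the strand of the gene and blue blocks cores on the other strand, with 8 in MT2A, 4 in MT1X, 2 in SLC30A1 and 0 in MTF1.

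In these cells the metallothionein RNA was mainly MT2A, followed by MT1G. Levels between genes are compared as normalized CPM per kb of exon, where the exon length is that of all annotated exons of the gene. Where the RNA present is shorter than this length, the level is understated, so the order and shares below depend on it. MT2A ranged from 87.2 to 108 over the 4 libraries, above 98.3% of the genes tested by its mean. MT1G ranged from 26.4 to 36.7, above 92.7% of the genes tested. The exporter SLC30A1 followed with 14.5 to 15.6, then MTF1 with 4.43 to 4.92, MT1F with 3.25 to 4.30 and MT1X with 2.67 to 3.62. The ranges of MT1F and MT1X overlapped, whereas all other neighbours in this order were apart in the 4 libraries. The median over the genes tested was 2.54. Within the summed level of the 6 metallothionein genes per kb, MT2A took 71.0% to 72.6% and MT1G 22.0% to 24.1% in each library.

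**Figure D2:**
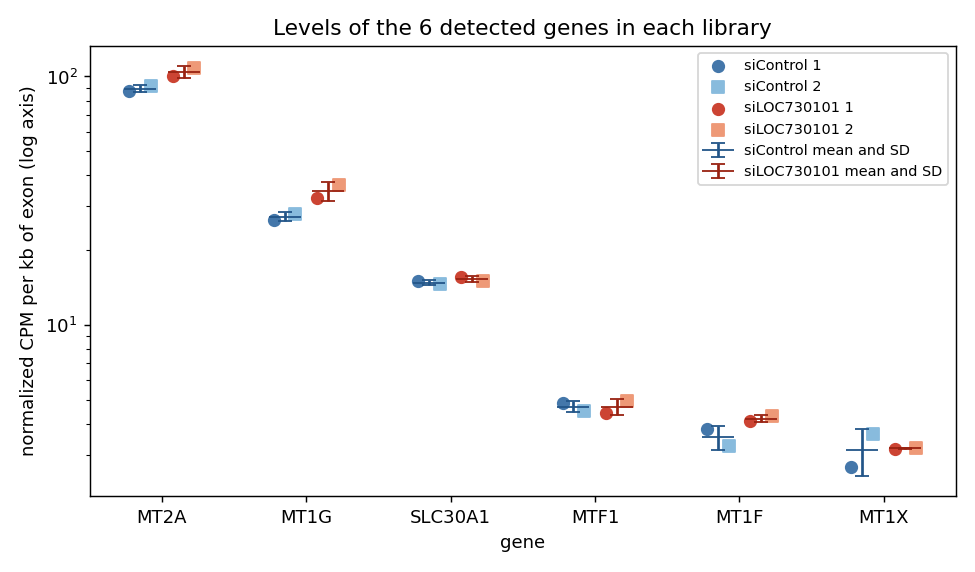
Normalized CPM per kb of exon (vertical, log axis) of the 6 detected genes in each library, with group means and SD (n = 2). MT2A lies highest at 87.2 to 108 and MT1X lowest at 2.67 to 3.62, and the siLOC730101 points of MT2A, MT1G and MT1F lie above their siControl points.

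MT1E and MT1M, which also encode zinc-binding metallothioneins, had 0 counts in all 4 libraries. A count of 0 allows up to 3 counts, or 0.0555 to 0.0790 CPM in a library, which covers counting error only. This limit takes every count as independent, so it is too low where both mates of a fragment were counted. Both genes therefore did not pass the expression filter and could not be compared. Of 16 further genes and pseudogenes of the family list in the table, 10 had 0 counts in all 4 libraries, MT1A, MT1B and MT1H among them. Reads that fit several copies may be lost in counting, so the share of each gene's transcript sequence that recurs in another of the 21 metallothionein genes or pseudogenes with annotated transcripts was taken. Of all 50-base windows, 7.1% were shared for MT1E, 18.2% for MT1M and 16.4% for MT1G, and between 1.24% and 4.18% for MT1F, MT1X and MT2A. Of all 100-base windows, 0 were shared for any of the 6 genes. Most 50-base windows of MT1E and MT1M thus recur exactly in no other annotated transcript of the family. Only exact matches were searched, so stretches that differ by a few bases are not covered. Whether reads were lost was not tested.

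None of the 6 genes that passed the filter was called after siLOC730101 at an adjusted p under 0.05. Over all genes tested, 0.284% were called. At an unadjusted p under 0.05, 2 of the 6 genes were higher, MT1G and MT2A, and 0 were lower, where 6.43% of all genes tested were higher. In DESeq2, 0 of the 8 genes were called, against 3.12% of the genes to which it gave an adjusted p, and MT1F and MT1X received none. Both siLOC730101 libraries lay above both siControl libraries for MT2A, MT1G and MT1F, 3 of the 6 genes, where this held for 21.3% of all genes tested. The median log2 fold change of the 6 genes was 0.13, and that of all genes tested was -0.0021.

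MT2A, the metallothionein gene with the highest level, lies on chromosome 16 from 56608584 to 56609497 (GRCh38, plus strand). The siControl libraries held 4306 and 3918 of its counts and the siLOC730101 libraries 3758 and 3752. Scaled for library size, these were 79.7 and 83.7 CPM in siControl and 91.5 and 98.8 CPM in siLOC730101. The groups did not overlap, and siLOC730101 replicate 2 was the highest library. The mean was 81.7 ± 2.86 CPM (SD, n = 2) in siControl and 95.1 ± 5.20 CPM (SD, n = 2) in siLOC730101. The log2 fold change was 0.22 (SE 0.085, 95% interval 0.040 to 0.40, edgeR adjusted p = 0.325), which did not pass the threshold. It passed in 1 of the 15 alternatives, without siLOC730101 replicate 1 (log2 fold change 0.28, edgeR adjusted p = 0.0410). Over the alternatives its adjusted p in edgeR or DESeq2 lay between 0.0410 and 0.934. In bulk RNA, the level per cell and the share of cells that express a gene cannot be told apart.

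MT1G, at chr16:56666730-56668065 (minus strand), is the one gene of the 6 metallothionein genes that is transcribed in the opposite direction. Its level was 19.8 and 21.1 CPM in siControl and 24.4 and 27.6 CPM in siLOC730101. As for MT2A, the groups were apart and siLOC730101 replicate 2 was highest. The means were 20.5 ± 0.875 CPM (SD, n = 2) and 26.0 ± 2.22 CPM (SD, n = 2). The log2 fold change was 0.34 (SE 0.12, 95% interval 0.082 to 0.61, edgeR adjusted p = 0.281). It passed in none of the 15 alternatives, with an adjusted p of 0.0754 to 0.877 in edgeR or DESeq2. The ratio of MT1G to MT2A counts was 0.249 and 0.252 in siControl and 0.267 and 0.279 in siLOC730101.

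MT1F, on chromosome 16 from 56657731 to 56660698, had a level of 7.03 and 6.02 CPM in siControl and 7.59 and 7.95 CPM in siLOC730101. The groups did not overlap, but the gap between them was smaller than the gap between the siControl libraries. Its log2 fold change was 0.25 (SE 0.20, 95% interval -0.17 to 0.68, edgeR adjusted p = 0.717), and it was 0.15 without siControl replicate 2. MT1X, from 56682470 to 56684196, had 4.61 and 6.26 CPM in siControl and 5.48 and 5.51 CPM in siLOC730101. Both siLOC730101 libraries lay between the siControl libraries. The log2 fold change of MT1X was 0.017 (95% interval -0.48 to 0.51, edgeR adjusted p = 0.992), and its direction turned in 4 of the 15 alternatives, upper-quartile factors and library size only among them. The interval includes changes larger than those of MT2A and MT1G in both directions, so a change of that size was not detectable for MT1X. Of the exon bases of MT1X, 321 (18.6%) also belong to ENSG00000259827 on the same strand, which had 0 counts, and the counting command has no option to count reads on such bases for both genes.

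An exchange of reads among the 6 metallothionein genes would not change their summed level, but reads lost in counting or given to other copies would. Of the 139 recurring 50-base windows of MT1G, 54 were shared with MT1H, which is not in the sum, and no other gene shared more. The summed level was 111 and 117 CPM in siControl and 129 and 139.8 CPM in siLOC730101. The means were 114 ± 4.20 CPM (SD, n = 2) and 134 ± 7.70 CPM (SD, n = 2), a ratio of 1.18 or 0.24 on the log2 scale, given here without a test. The groups did not overlap, and the log2 ratio lay between 0.17 and 0.30 when any 1 library was left out. The sum was not recomputed with the trend against exon length removed, which brings the log2 fold changes of MT2A and MT1G, its main parts, to -0.029 and 0.071.

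The regulator and the exporter showed overlapping groups. MTF1, the zinc-sensing transcription factor, lies on chromosome 1 from 37809574 to 37859592. It had 38.8 and 36.1 CPM in siControl and 35.4 and 39.3 CPM in siLOC730101, and siLOC730101 held both the lowest and the highest library. Its log2 fold change was -0.0039 (SE 0.11, 95% interval -0.23 to 0.22, edgeR adjusted p = 0.998), and the direction turned in 3 of the 15 alternatives. SLC30A1, which exports zinc across the plasma membrane and is itself a target of MTF1, lies on chromosome 1 from 211571568 to 211579161. It had 88.4 and 85.7 CPM in siControl and 91.9 and 88.1 CPM in siLOC730101, also overlapping. Its log2 fold change was 0.048 (SE 0.082, 95% interval -0.13 to 0.22, edgeR adjusted p = 0.901). The intervals of MTF1 and SLC30A1, with upper ends of 0.221 and 0.223, only just include the log2 fold change of MT2A (0.220). They include that of MT1X (0.017) but not the point estimates of MT1G (0.34) and MT1F (0.25). The intervals of MT1G (0.082 to 0.61) and MT1F (-0.17 to 0.68) overlap those of MTF1 and SLC30A1. Differences between genes were not tested.

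**Figure D3:**
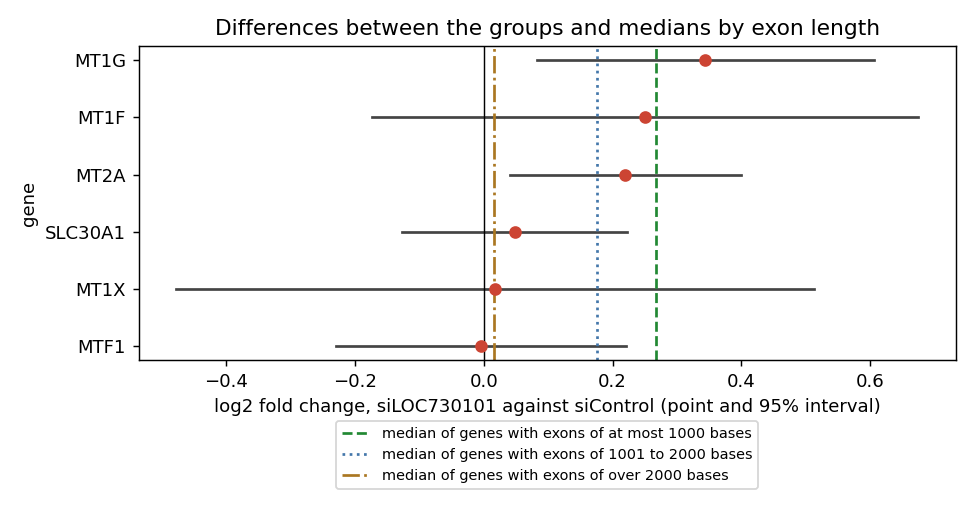
Log2 fold changes of siLOC730101 against siControl (horizontal) for the 6 detected genes, with points for the estimates and lines for 95% intervals. Vertical lines mark 0 and the medians of genes by exon length, and the points of MT1G (0.34) and MT2A (0.22) lie on both sides of the median of 0.27 for genes with at most 1000 exon bases.

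Log2 fold changes were higher for genes with a short total exon length as a class, and the metallothionein genes are short in this sense. Exon lengths were 751 bases for MT1G, 914 for MT2A, 1727 for MT1X and 1852 for MT1F, against 5893 for SLC30A1 and 7989 for MTF1. Among genes tested with a mean of at least 10 CPM, the 111 genes with at most 1000 exon bases had a median log2 fold change of 0.27, with quartiles of 0.069 and 0.42. The median was 0.18 for the 582 genes with more than 1000 and up to 2000 bases and 0.016 for the 9193 longer genes. With the trend against exon length removed in the fit, an alternative added after the data were seen, the log2 fold change of MT2A was -0.029 and that of MT1G 0.071. It was 0.092 for MT1F and -0.15 for MT1X, with adjusted p-values in edgeR of 0.876 to 0.934 over the 4 metallothionein genes. SLC30A1 and MTF1 then had 0.031 and 0.0053. The log2 fold changes of MT2A and MT1G thus lay between the quartiles of genes of their length class, and the origin of the length trend was not tested.

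**Figure D4:**
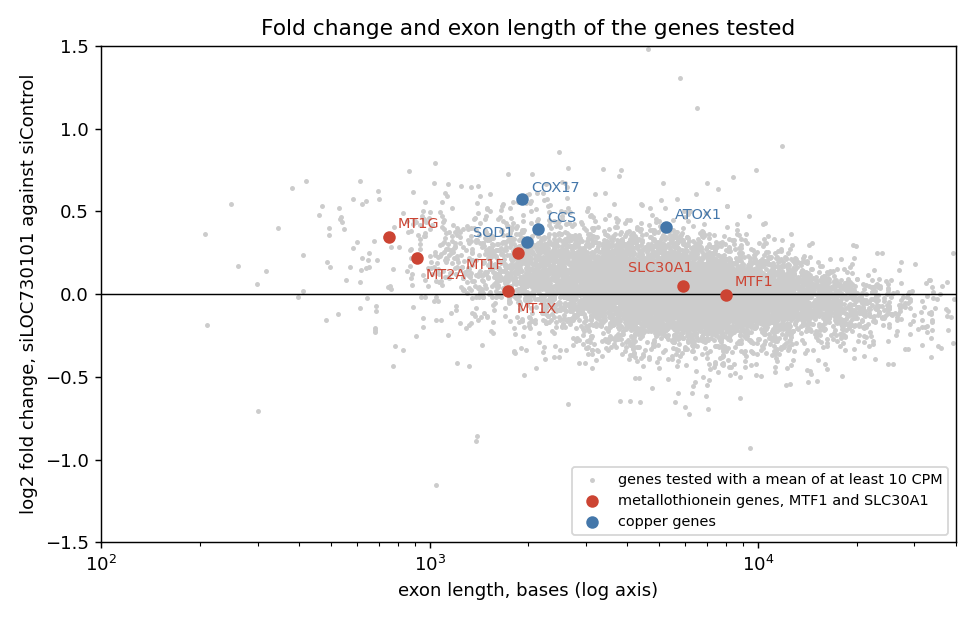
Log2 fold change of siLOC730101 against siControl (vertical) and exon length in bases (horizontal, log axis) of 9862 genes tested with a mean of at least 10 CPM (grey), where 24 further genes lie outside the axes. The 6 detected genes are in red and 4 copper genes in blue, and the grey points shift upward towards short exon lengths, where MT1G and MT2A lie.

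Other genes of zinc transport were compared with the same fit. SLC30 family members carry zinc out of the cytosol, and of 10 such genes listed besides SLC30A1, TMEM163 included, 8 were tested and 0 were called in edgeR, with 0 at an unadjusted p under 0.05 and 0 in DESeq2. Their median log2 fold change was -0.062. SLC30A4, SLC30A9 and SLC30A6 had the highest levels, with log2 fold changes of -0.0079, 0.022 and -0.12. SLC39 family members carry zinc into the cytosol. Of 14 listed, 11 were tested and 0 were called in edgeR or DESeq2, with 1 higher and 1 lower at an unadjusted p under 0.05 and a median of 0.035. Among them SLC39A6 had 309 and 305 CPM in siControl and 282 and 270.3 CPM in siLOC730101 (log2 fold change -0.15, edgeR adjusted p = 0.461). SLC39A8 and SLC39A10 had log2 fold changes of 0.035 and 0.10.

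Further genes reported as MTF1 targets are NDRG1, CSRP1, SLC39A10, SELENOW, GCLC, PGF and HAMP. The list does not state whether MTF1 raises or lowers each gene, so a shared direction among them is a description only. Of these 7 genes, 6 were tested, 0 were called in edgeR and 1 in DESeq2, where DESeq2 called 3.12% of the genes with an adjusted p. At an unadjusted p under 0.05 in edgeR, 2 were higher, where 6.43% of all genes tested were higher. All 6 log2 fold changes were above 0, as were 49.6% of those of all genes tested and 56.8% of those with at least 10 CPM. The median of the 6 was 0.17. Without siControl replicate 2, NDRG1 and SLC39A10 had log2 fold changes of -0.0091 and -0.011. The gene called in DESeq2 was SELENOW, which encodes a small selenoprotein and is named after its values were seen. It had 75.8 and 73.6 CPM in siControl and 85.6 and 105 CPM in siLOC730101, or 0.35 on the log2 scale (edgeR adjusted p = 0.154), and without siLOC730101 replicate 1 its adjusted p in edgeR was 4.31e-06. Without siLOC730101 replicate 2, the log2 fold change of SELENOW was 0.19 (edgeR adjusted p = 0.653). NDRG1 and CSRP1 had 0.12 and 0.21, and the adjusted p of CSRP1 was 0.353 in edgeR, 0.00946 without siLOC730101 replicate 1 and 0.837 without siLOC730101 replicate 2, where its log2 fold change was 0.11.

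Copper, which metallothioneins also bind, was examined with 11 genes of copper uptake, export and delivery. All 11 were tested, and 1 was called higher and 0 lower in edgeR, where 0.284% of all genes tested were called. At an unadjusted p under 0.05, 5 were higher and 0 lower, where 1244 (6.43%) of all 19349 genes tested were higher and 850 lower. The log2 fold change was above 0 in 8 of the 11 genes, and in 49.6% of all genes tested. It ranged from -0.89 to 2.33 in the 11 genes, with a median of 0.15. COX17, which delivers copper to cytochrome c oxidase in mitochondria, had 34.6 and 34.7 CPM in siControl and 46.0 and 57.4 CPM in siLOC730101. Its log2 fold change was 0.57 (SE 0.11, 95% interval 0.33 to 0.81, edgeR adjusted p = 0.0471), close to the threshold. The call was lost in 4 of the 15 alternatives, RLE size factors (adjusted p = 0.0553), upper-quartile factors (0.0546), the length trend removed (0.0520) and without siLOC730101 replicate 2 (0.111, log2 fold change 0.40). In the alternatives the adjusted p for COX17 lay between 7.83e-08 and 0.111 (edgeR or DESeq2).

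The 3 copper genes named next were chosen after their values were seen, and they did not pass the threshold in edgeR. SOD1, the copper and zinc superoxide dismutase, had 224 and 216 CPM in siControl and 246 and 301 CPM in siLOC730101 (log2 fold change 0.32, edgeR adjusted p = 0.163). It was called in DESeq2, as was COX17, where 3.12% of the genes with an adjusted p were called. CCS, the copper chaperone of SOD1, had 23.0 and 22.2 CPM against 29.6 and 29.8 CPM (log2 fold change 0.39, edgeR adjusted p = 0.169). ATOX1, which hands copper to the exporters ATP7A and ATP7B, had 31.6 and 37.4 CPM against 40.9 and 50.7 CPM (log2 fold change 0.41, edgeR adjusted p = 0.177). All 3 genes had their siLOC730101 libraries above both siControl libraries, which held for 21.3% of all genes tested. Exon lengths were 1911 bases for COX17, 1975 for SOD1, 2142 for CCS and 5239 for ATOX1, and with the length trend removed their log2 fold changes were 0.41, 0.16, 0.26 and 0.38. Without siLOC730101 replicate 1, SOD1 and ATOX1 passed in edgeR, with adjusted p-values of 1.62e-07 and 1.94e-04. Without siLOC730101 replicate 2, the log2 fold changes of SOD1 and ATOX1 were 0.16 (edgeR adjusted p = 0.616) and 0.24 (edgeR adjusted p = 0.692).

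Metallothionein genes also respond to glucocorticoids, so genes known for that response were listed. All 10 were tested, 0 were called in edgeR or DESeq2, 1 was higher at an unadjusted p under 0.05, and the median log2 fold change was -0.013. FKBP5, ZBTB16 and TSC22D3 had the highest levels, with log2 fold changes of 0.19, -0.11 and 0.10. Of 37 other genes within 500 kb of the metallothionein genes on chromosome 16, 14 were tested and 0 were called in edgeR or DESeq2, with 0 at an unadjusted p under 0.05. The log2 fold change was above 0 in 7 of the 14. Among these neighbours HERPUD1 and NUP93 had log2 fold changes of -0.0060 and 0.0061, whose directions turned in some alternatives. Outside the 8 genes, 2 genes of the metallothionein list were tested. The pseudogene MT1DP had counts of 56 and 48 in the siControl libraries and of 20 and 32 in the siLOC730101 libraries (log2 fold change -0.63, SE 0.58, edgeR adjusted p = 0.769), and TESMIN, a testis gene once named as metallothionein-like, differed by -0.081 on the log2 scale (edgeR adjusted p = 0.882).

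The pattern of MT2A over the 4 libraries was compared with that of the other 19348 genes tested, by the root mean square distance between log2 CPM values centred on each gene's mean. With 4 libraries this is a description only. The nearest genes with at least 10 CPM were MRFAP1L1, NAPA and MMP15, at distances of 0.0065, 0.0069 and 0.0092 on the log2 scale. MT1G stood at a distance of 0.065, and 5.91% of the genes were nearer to MT2A. For MT1F, SLC30A1, MTF1 and MT1X, 18.3%, 20.8%, 26.5% and 39.0% of the genes were nearer. The distance also grows with the size of a gene's differences and with counting noise at low counts, so it does not compare shape alone. Over siControl 1 and 2 and siLOC730101 1 and 2, the centred values of MT1G were -0.21, -0.13, 0.084 and 0.26. Those of MRFAP1L1 were -0.14, -0.084, 0.061 and 0.16, with the same order and signs.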

How the data were processed

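RNA was measured in 4 libraries, 2 for each siRNA. The authors deposited raw counts per gene. Per the file header, they counted reads on exons by gene name with featureCounts 2.0.1 and gencode version 41 on hg38. The command had no paired-end, strand or multi-mapping option, so that mates of 1 fragment may count separately. Of the low non-zero gene counts, 66.0% to 70.1% in each library were even numbers. Gene counts and library totals may thus exceed the number of fragments. Trim-galore was used before alignment. For the aligner, the methods of the study name STAR with hg19 and the labels list BWA with hg38. Library totals of 39213498 to 53368158 counts limit the precision of weak genes. All count columns were matched to the 4 libraries.

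The model was fitted with edgeR 4.0.16 under R 4.3.3 (filterByExpr, TMM, legacy quasi-likelihood test, group as the only term), with Benjamini-Hochberg adjustment over all genes tested. Standard errors and 95% intervals were derived from coefficients and F statistics. CPM values are scaled with the TMM factors. DESeq2 1.42.0, other scalings and filters, the replicate block, other quasi-likelihood settings, halved counts and leaving out each library were the alternatives. The lowess trend of each library against log2 exon length, taken over genes with at least 10 CPM, was added later as an offset. The test was checked on simulated data.

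The 8 genes and the lists were chosen with earlier results of these data known. Named genes are the 8 members, LOC730101, family genes that were tested, and from the lists of metal handling, of glucocorticoid response and of neighbours the called genes or otherwise up to 3 with the highest CPM. A gene that this rule names is not reported here. SOD1, ATOX1, CCS and SELENOW were added after their values were seen. Promoters were read from RefSeq and transcript windows from a gencode annotation lifted to GRCh37, used for sequence and not for positions. Python 3.11.15 was used for both. Of the marker lists, the 6 stromal and 3 endothelial markers summed to 16.0 to 20.5 and 5.84 to 9.44 CPM.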

Additional observations from a re-analysis of the deposited data

How the results depend on the processing

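The number of members called was 0 in edgeR and in every alternative except 1, in which siLOC730101 replicate 1 was left out (range 0 to 1, MT2A). Over all genes tested, 41 genes were higher and 14 lower, 55 in all. This total was 93 with library size only (58 higher, 35 lower), 437 with at least 1 count in any library, 140 with a CPM of at least 1 in at least 2 libraries, 297 with DESeq2, 111 with legacy off, 146 with halved counts and 114 with the length trend removed (56 higher, 58 lower). It ranged from 137 to 1195 when 1 library was left out, and was highest without siLOC730101 replicate 1. With the replicate block it was 652, and 0 of the 8 genes were called, while SOD1, ATOX1, CCS and SELENOW were. The labels give shared replicate numbers but no shared culture or day, and the deviations of same-numbered libraries correlated at 0.070 over genes with at least 10 CPM. LOC730101 stayed lower and past the threshold in all alternatives, between -1.67 and -1.44. The summed metallothionein level stayed above 0 under other scalings and without any 1 library, and was not recomputed with the length trend removed.

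Of 90 alternative values of the 6 tested members, 81 kept direction and call, 8 turned direction and 1 gained a call. MT1X was -0.014 with upper-quartile factors, -0.020 with library size only, -0.15 with the length trend removed, and -0.19 to 0.26 when 1 library was left out. MT2A was -0.029 with the length trend removed. MTF1 was 0.0053 there and -0.084 to 0.079 when 1 library was left out. Of 300 values of other named genes, 269 kept direction and call, 14 turned direction in genes that were not called, 13 gained a call and 4, all of COX17, lost it. SLC30A4 was 0.00067 with the length trend removed and -0.059 to 0.047 when 1 library was left out, SLC30A9 was -0.0093 with upper-quartile factors and -0.016 with library size only, SLC39A8 was -0.0031 with library size only, and NUP93 was -0.025 with upper-quartile factors, -0.031 with library size only and -0.0085 with a CPM of at least 1. When 1 library was left out, NDRG1 ranged from -0.0091 to 0.27, SLC39A10 from -0.011 to 0.23, TESMIN from -0.20 to 0.036 and HERPUD1 from -0.032 to 0.025. The causes of these changes were not tested. The offset removes the length trend by construction, so the values under it do not test a cause. MT1E and MT1M stayed at 0 counts, and whether this reflects depth, reads lost in counting or absent RNA was not tested. With counts halved, the standard error of MT1X went from 0.23 to 0.24 and that of MT1F was 0.20 with either.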
